A study of Mus musculus with 14 samples.

Results

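The miRNAs numbered miR-297, miR-466, miR-467 and miR-669 form a family of closely related short RNAs known from mouse and rat. Its members were taken by name, as every mature miRNA of the table whose name carries one of these 4 numbers followed by a letter or a hyphen. This gave 75 of the 1695 mature mouse miRNA names. There were 6 names of miR-297, 29 of miR-466, 12 of miR-467 and 28 of miR-669. Of the 75 names, 31 stood for the 5p arm of a hairpin and 32 for the 3p arm, and 12 carried no arm. The rule used the names and no measured value.

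The data are small RNA libraries of small extracellular vesicles, membrane-bound particles shed by cells, here by primary neutrophils. The neutrophils, Ly6G-positive cells of the marrow of female BALB/c mice (wild type), were kept for 48 h with the solvent DMSO (7 libraries, the control group) or with 10 µM 27-hydroxycholesterol (27HC, a cholesterol metabolite; 7 libraries). The labels number the libraries 1 to 7 in each group and name no animal, pool or age, so p-values measure the spread between these libraries, which may in part be technical. Each description also holds 2 consecutive numbers (1 and 2 for replicate 1, 13 and 14 for replicate 7), the same in both groups, without saying whether they mark animals, pools or runs. The question put to the family was whether its level in the vesicles differed between the treatments.

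A miRNA is cut from a hairpin in a longer transcript, is loaded into an Argonaute protein and represses messenger RNAs that pair with its seed, the bases 2 to 8 from its 5′ end. The bulk of this family lies as a tandem array in an intron of Sfmbt2, a Polycomb group gene that is imprinted in mouse and active in the placenta, and the array is known for its abundance in placenta and embryonic stem cells. Its mature RNAs are rich in alternating UG or CA bases, so several members differ by little or nothing in sequence, and a read cannot always be given to one of them.

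Hairpin positions were read from GENCODE M21, an annotation of the mouse build GRCm38. The submitters' processing notes name GRCm39, and the count table holds no positions, so the coordinates describe the annotation and not the counts. By name, 81 hairpin genes were matched. Of these, 71 lay within Sfmbt2 (chr2:10370510-10595253), all in introns and on the strand of the gene, over 51.6 kb from chr2:10466663-10518279. The other 10 hairpins lay on 7 other chromosomes. For 59 names every hairpin was inside Sfmbt2, for 5 names (miR-297a-5p, miR-297a-3p, miR-466f-5p, miR-466f-3p and miR-466f) hairpins lay both inside Sfmbt2 and elsewhere, and for 9 names all lay elsewhere. Those 9 were miR-466i-5p, miR-466i-3p, miR-466j, miR-466k, miR-466q, miR-467f, miR-467g, miR-467h and miR-669n. No hairpin was matched by name to miR-466a-5p and miR-466a-3p.

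RefSeq mature sequences (GRCm38.p6) were matched to 8 family names, all of them encoded outside Sfmbt2, and to 1431 names of the whole table. They are shown because they display the UG and CA repeats and the seeds, set in capitals, by which the names differ. Each is written 5′ to 3′.
miR-466i-3p: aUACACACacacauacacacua
miR-466q: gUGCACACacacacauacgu
miR-467f: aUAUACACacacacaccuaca
miR-467g: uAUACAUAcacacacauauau
miR-466j: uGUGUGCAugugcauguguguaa
miR-466k: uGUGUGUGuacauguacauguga
miR-467h: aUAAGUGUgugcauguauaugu
miR-669n: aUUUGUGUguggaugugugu

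The 8 sequences carried 8 different seeds, so none of them formed a seed group with another. The first 4 are CA-rich and all held the run CACACACA, which 4 of the 1431 sequences (0.28%) held, none of them outside the family. The last 4 are UG-rich, and miR-466k and miR-669n held the run UGUGUGUG, which 7 of the 1431 sequences (0.489%) held. Both runs were searched on the RNA strand itself, and overlapping matches counted as 1. The most abundant of the 8 was miR-466i-3p, the 3p arm of a hairpin at chr13:17747473-17747593 in an intron of Cdk13, on the strand opposite to that gene, with the mature RNA at chr13:17747552-17747573 on the plus strand. The other hairpins with a shown sequence lay in introns of Tnik (Mir466q, same strand), Fxr2 (Mir467f), Grk4 (Mir467g), Slc30a7 (Mir669n) and Gm37240 (Mir466k), the last 4 on the opposite strand, or in no other gene (Mir466j and Mir467h).

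The family was scarce in these vesicles. Its 75 names held 6102 of 3925790 counts over the 14 libraries, 0.155%. By library this share was lowest at 0.0681% in DMSO replicate 3 and highest at 0.253% in DMSO replicate 5. A single name, miR-466i-5p, held 2931 of the 6102 counts (48%). Next came miR-466f-3p with 410 counts, miR-669a-3p with 309 and miR-466i-3p with 303. In all, 12 names had a count in every library and 42 had one in at least 7 libraries. At the other end, 27 names had at most 10 counts in total, 9 had 1, and 59 never exceeded 10 counts in any library.

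Pooled over the libraries, fewer of the family's counts stood under names annotated only in Sfmbt2 than under names annotated only elsewhere. The 9 names encoded elsewhere held 3398 counts (55.7% of the family), and the 59 names whose hairpins were all inside Sfmbt2 held 2206 (36.2%). miR-466i-5p alone held 2931 of the 3398, so this order rested on 1 name. Without it the Sfmbt2-only names held more. No mature sequence was matched to miR-466i-5p, and its reads were not traced to a hairpin. Names with hairpins in both kinds of place held 7.74%. By library the Sfmbt2-only share of the family level ran from 18.2% to 55.9%, and in DMSO replicates 1 and 6 and 27HC replicate 2 it exceeded the share of names encoded elsewhere. By number, miR-466 held 4166 counts, miR-669 held 1617, miR-467 held 234 and miR-297 held 85. The counts of this paragraph take in names with identical counts more than once.

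**Figure D1:**
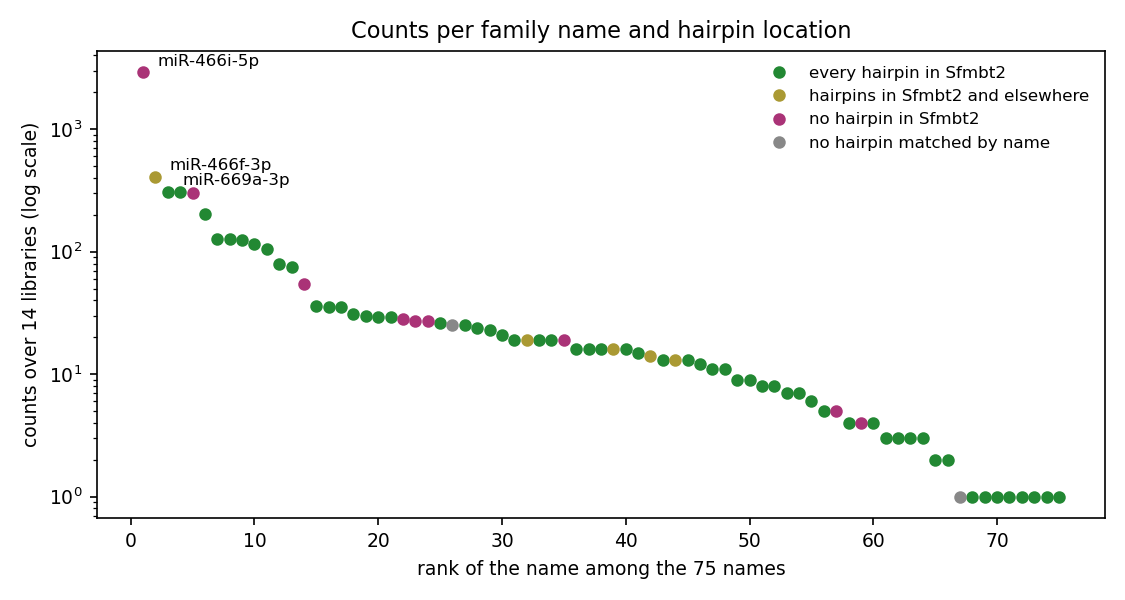
Counts over all 14 libraries (y axis, log scale) of each of the 75 family names, ordered from the most to the least abundant (x axis, rank) and coloured by where the hairpins lie. miR-466i-5p, annotated outside Sfmbt2, stands at 2931 counts, above miR-466f-3p at 410 and miR-669a-3p at 309, and 27 names have 10 counts or fewer.

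Some names did not carry separate data. In 6 groups, holding 14 names, the counts were the same in all 14 libraries. They were miR-669a-3p with miR-669o-3p (309 counts each), miR-669m-5p with miR-466m-5p (35), miR-466a-3p with miR-466e-3p (25), miR-297a-3p with miR-297b-3p and miR-297c-3p (19), miR-466b-3p with miR-466c-3p and miR-466p-3p (16), and miR-669d-3p with miR-669d-2-3p (8). Counting each group once left 67 names and 5655 counts. Other pairs were equal in most libraries, such as miR-466f-5p and miR-466f in 13 of 14. How reads that match several names were counted is not given in the sources used here, so values of single names with near copies are uncertain.

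Marker miRNAs were set beside the neutrophil origin given by the labels. The 4 listed for neutrophils and myeloid cells (miR-223 and miR-142a, both arms) were present in every library, with 83291 to 216664 summed CPM (counts per 1000000 counts, scaled by TMM factors) in DMSO and 113054 to 149157 in 27HC. miR-142a is a miRNA of blood cells in general, so this sum does not set neutrophils apart. Of these 4, miR-142a-3p and miR-142a-5p fell in 27HC, with log2 differences of -1.53 and -0.74 (adjusted p = 3.55e-05 and 0.0223, edgeR). miR-223-3p and miR-223-5p were not called (adjusted p = 0.406 and 0.388, edgeR). The lymphoid marker miR-150-5p, at 141 to 376 CPM in DMSO and 73.8 to 172 in 27HC, also fell (log2 difference -0.97, adjusted p = 0.0134, edgeR). The part of either in the family's values was not tested. Erythroid markers summed to 489 to 1051 CPM in DMSO and 730 to 1105 in 27HC, stromal and endothelial markers to 777 to 1772 and 714 to 1812, and liver miR-122-5p stood at 2476 to 4587 and 1895 to 3672, and none that passed the filter was called. Of 6 miRNAs of pluripotent cells and the early embryo, 5 were in the table, with 19 counts in all, none had a count in every library, and their sum reached at most 26.8 CPM. Library totals ran from 229324 to 871189 counts in replicates 1 to 4 and from 112914 to 252014 in replicates 5 to 7. As an approximate upper limit for a count of 0, and not a hard bound, 3 counts were taken. They corresponded to 3.44 CPM in the deepest library and 26.6 CPM in the shallowest. These limits use library totals without TMM factors and cover counting error only.

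The summed family level overlapped between the treatments. It was 1779, 1715, 808, 1300, 2293, 2042 and 1928 CPM in DMSO replicates 1 to 7, and 2117, 960, 2415, 1663, 1980, 1828 and 2009 CPM in the 27HC replicates. The means were 1695 ± 497 in DMSO and 1853 ± 458 in 27HC (SD, n = 7 each), and the difference of the mean log2 levels was 0.15, within the spread of each group. Only 27HC replicate 3 lay above the highest DMSO library, and none lay below the lowest. With miR-466i-5p left out the sum was 1047 ± 449 CPM in DMSO and 926 ± 310 in 27HC, a log2 difference of -0.10. With identical names counted once the whole family averaged 1548 ± 475 CPM in DMSO and 1738 ± 472 in 27HC, a log2 difference of 0.18. No p is given for sums, which describe names chosen with results of these data known.

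Subsets of the family had log2 differences of either sign, and each subset overlapped between the groups. The 59 names inside Sfmbt2 summed to 346 to 1098 CPM in DMSO (mean 755 ± 306) and 367 to 886 in 27HC (mean 598 ± 210), a log2 difference of -0.28 with every 27HC library inside the DMSO range. Names encoded elsewhere averaged 797 ± 217 CPM in DMSO and 1088 ± 427 in 27HC, a difference of 0.39 that was 0.21 without miR-466i-5p, and 3 of 7 27HC libraries lay above the highest DMSO library. By number, miR-466 averaged 1035 ± 293 CPM in DMSO and 1327 ± 477 in 27HC, miR-669 averaged 541 ± 201 and 424 ± 109, miR-467 averaged 85 ± 66.1 and 81.4 ± 84, and miR-297 averaged 34.7 ± 23.7 and 20.8 ± 27.2 (SD, n = 7). The miR-297 names were at 0 in 27HC replicates 2 and 4. These sums take in names with identical counts more than once. Counted once, miR-466 averaged 1001 ± 294 CPM in DMSO and 1302 ± 487 in 27HC, and miR-669 averaged 443 ± 190 and 345 ± 90. Counted in that way miR-297 averaged 19.5 ± 9.34 and 10.5 ± 12.5 CPM, and the log2 difference of the Sfmbt2-only names was -0.25.

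The difference of the 5p names turned on miR-466i-5p. All 5p names summed to 838 ± 182 CPM in DMSO and 1024 ± 422 in 27HC, a log2 difference of 0.21, with 3 of 7 27HC libraries above the highest DMSO library and 1 below the lowest. The 3p names summed to 755 ± 321 CPM in DMSO and 730 ± 234 in 27HC, a log2 difference of 0.03. The 5p names without miR-466i-5p summed to 368, 138, 99.5, 89.1, 200, 228 and 205 CPM in DMSO replicates 1 to 7, and to 73.3, 74.2, 94.8, 63.2, 128, 99.5 and 139 CPM in the 27HC replicates. Of the 7 27HC libraries 3 lay below the lowest DMSO library and 4 lay within the DMSO range. The means were 190 ± 95.3 and 96.1 ± 28.9 CPM, and the log2 difference of -0.88 was -0.95 in replicates 1 to 4 and -0.80 in replicates 5 to 7. With identical names counted once the means were 177 ± 78.4 and 89.3 ± 25.8 CPM, a log2 difference of -0.91. This sum was added after the data were seen. It takes in miR-669c-5p, at 70.6 ± 21.4 and 40.1 ± 14 CPM, so it is not separate from the values of that name.

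**Figure D2:**
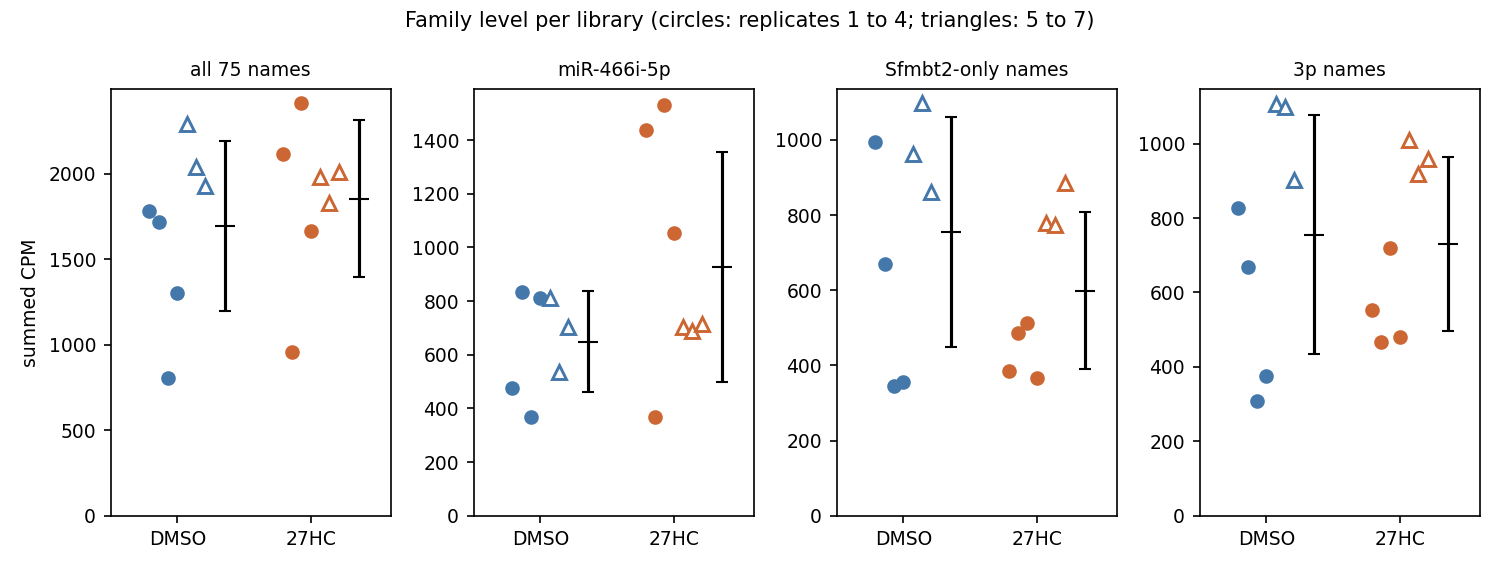
Summed CPM per library (y axis, from 0) of all 75 names, of miR-466i-5p, of the names with every hairpin in Sfmbt2 and of the 3p names, by treatment (x axis). Circles are replicates 1 to 4, triangles replicates 5 to 7, and bars the mean and SD of 7 libraries. DMSO and 27HC overlap in each panel, and the triangles of the 3p names all lie at 902 CPM or above while the circles lie at 827 or below.

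In both groups the level of the 3p names differed between libraries numbered 1 to 4 and those numbered 5 to 7, while that of the whole family overlapped in 27HC. This split of the numbers was known from earlier results on these libraries, and the labels do not say what it marks. The 3p sum was 308 to 827 CPM in the 8 libraries numbered 1 to 4 and 902 to 1107 in the 6 libraries numbered 5 to 7, so the sets did not overlap. The 3p names were not alone in this. Names encoded elsewhere, without miR-466i-5p, reached at most 163 CPM in replicates 1 to 4 and at least 176 in replicates 5 to 7. The Sfmbt2-only names were at 367 to 514 and 773 to 886 CPM in 27HC, but their sets overlapped in DMSO. The whole family was separated in DMSO, at most 1779 against at least 1928 CPM. The summed family level of 27HC replicates 5 to 7 (1828 to 2009 CPM) lay inside the range of 27HC replicates 1 to 4 (960 to 2415), and miR-466i-5p was at 689 to 713 CPM in the former and at 366 to 1532 in the latter. In the direction of the 3p names, the names of the whole table expected at a depth of 112914 counts numbered 435 to 574 in replicates 1 to 4 and 670 to 863 in replicates 5 to 7. The ratio of miR-466i-5p to miR-466i-3p, by name the 2 arms of 1 hairpin, was 5.95 to 18.2 in replicates 1 to 4 and 4 to 6.92 in replicates 5 to 7. Depth moved with the set of replicate numbers, and the part of either in the level of the 3p names was not tested.

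Fewer family names were seen in the 27HC libraries as counted. The 27HC group held 1552769 counts in all against 2373021 in DMSO, but 871189 of the latter were in DMSO replicate 3 alone. The shallowest library, with 112914 counts, was DMSO replicate 5, so the difference in group totals does not hold library by library. At least 1 count was found for 44, 40, 43, 42, 42, 48 and 60 names in DMSO replicates 1 to 7 and for 32, 32, 34, 28, 31, 39 and 44 names in the 27HC replicates. The means were 45.6 ± 6.83 and 34.3 ± 5.44 names (SD, n = 7), and 6 of 7 27HC libraries lay below the lowest DMSO library. At the common depth of 112914 counts the expected numbers were 33.1 ± 10.6 in DMSO and 28.5 ± 8.87 in 27HC, and every 27HC library lay within the DMSO range. The rarefied numbers were 19 to 36.1 in replicates 1 to 4 and 30.4 to 43.7 in replicates 5 to 7 over both groups.

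**Figure D3:**
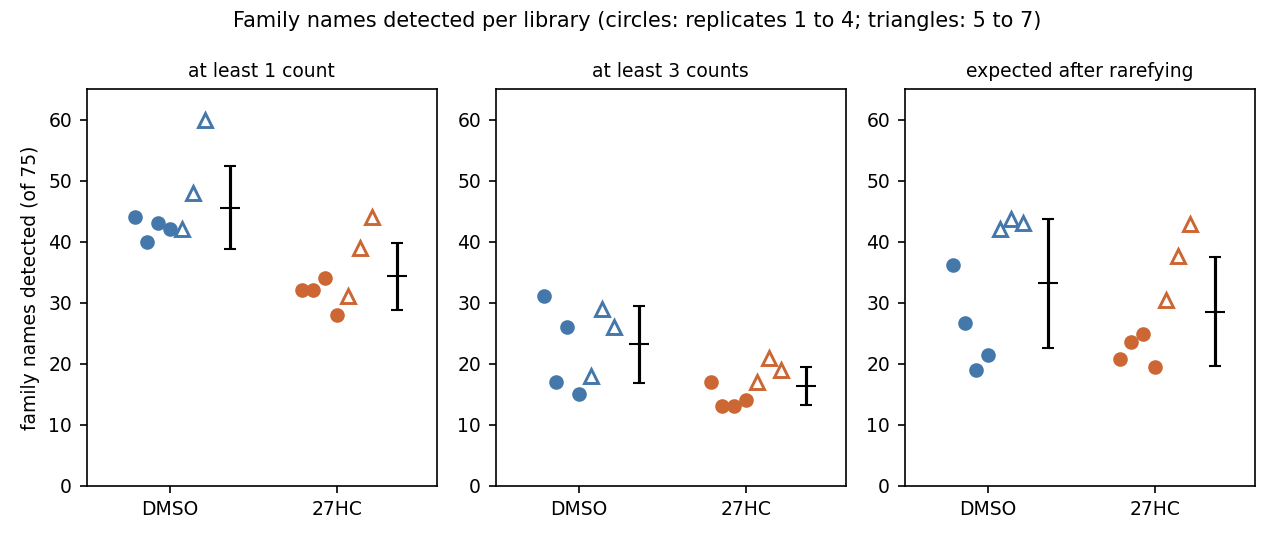
Family names detected per library (y axis, of 75) by treatment (x axis), with at least 1 count, with at least 3 counts, and the expectation after rarefying to 112914 counts. Circles are replicates 1 to 4, triangles replicates 5 to 7, and bars the mean and SD of 7 libraries. The gap between 45.6 and 34.3 names at 1 count narrows to 33.1 and 28.5 after rarefying.

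Each name was then tested in the fit over the whole table, with edgeR's quasi-likelihood test and Benjamini-Hochberg adjustment over all names tested. The filter on low counts kept 239 names, of which 30 (12.6%) were called at an adjusted p under 0.05, 9 higher in 27HC (3.77%) and 21 lower (8.79%). It kept 8 of the 75 family names, which held 77.3% of the family's counts, and left out 67. None of the 8 was called, 1 had an unadjusted p under 0.05 (12.5%, against 53 names or 22.2% of all tested), and DESeq2 and limma-voom called none either. The groups did not overlap for 13 of the 239 names (5.44%) and for 0 of the 8. Their median log2 fold change of 27HC against DMSO was -0.19, against 0.010 over all tested names. Of the 4 tested miR-466 names 3 had a fold change above 0, and all 4 tested miR-669 names had one below 0. The miR-669 count and the median take in miR-669a-3p and miR-669o-3p as separate names, although their counts were the same in every library.

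miR-466i-5p, by name the 5p arm of the chromosome 13 hairpin, stood at 474, 834, 368, 813, 810, 535 and 704 CPM in DMSO replicates 1 to 7. In the 27HC replicates it stood at 1436, 366, 1532, 1053, 705, 689 and 713 CPM. The 27HC replicates 1, 3 and 4 lay above the highest DMSO library, 27HC replicate 2 lay just below the lowest, and replicates 5 to 7 lay within the DMSO range. The means were 648 ± 188 and 928 ± 429 CPM, and the log2 fold change was 0.53 (SE 0.28), which was not called (edgeR adjusted p = 0.294).

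Within replicates 1 to 4 alone its log2 fold change was 0.88 (edgeR adjusted p = 0.163), and within replicates 5 to 7 alone 0.05 (adjusted p = 0.94). An interaction of treatment with the set of replicates gave an unadjusted p of 0.169 in edgeR, so a difference between the sets was not shown. Without the filter on low counts, replicates 1 to 4 alone gave 0.73 (SE 0.21, edgeR adjusted p = 0.0188), a fit in which 3.11% of 1449 names were called.

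The other arm, miR-466i-3p, ran from 28.6 to 176 CPM in DMSO (median 79.7) and from 32.5 to 176 in 27HC (median 99.5). Its log2 fold change, with its SE, was 0.27 ± 0.39 (adjusted p = 0.792, edgeR), with full overlap of the groups. miR-466f-3p, with hairpins annotated in Sfmbt2 and on chromosome 13, ran from 38.2 to 216 CPM in DMSO (median 98.6) and from 41.7 to 192 in 27HC (median 145). Its log2 fold change, with its SE, was 0.29 ± 0.38 (adjusted p = 0.756, edgeR). It was 0.95 in replicates 1 to 4 and -0.22 in replicates 5 to 7, neither called. miR-466m-3p, from the first hairpin of the Sfmbt2 array (chr2:10466663-10466746), ran from 6.72 to 104 CPM in DMSO and from 23.2 to 56.1 in 27HC, a log2 fold change, with its SE, of -0.07 ± 0.55 (adjusted p = 0.98, edgeR).

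miR-669c-5p, from a single hairpin in the array (chr2:10509296-10509404), had the smallest p of the 8. It stood at 75.9, 67.2, 39.5, 50.1, 72.2, 85.3 and 104 CPM in DMSO replicates 1 to 7 and at 33.1, 60.3, 49.9, 34.8, 40.1, 45.9 and 16.4 CPM in the 27HC replicates. The 27HC replicates 1, 4 and 7 lay below the lowest DMSO library and the other 4 lay within the DMSO range. The means were 70.6 ± 21.4 and 40.1 ± 14 CPM, and the log2 fold change of -0.78 (SE 0.29) had an unadjusted p of 0.0146 and an edgeR adjusted p of 0.097, so it was not called.

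The pair miR-669a-3p and miR-669o-3p, whose counts are the same, ran from 51.2 to 165 CPM in DMSO (median 80.2) and from 37.9 to 115 in 27HC (median 69.5). Up to 12 hairpins of the array carry the miR-669a-3p name. The log2 fold change, with its SE, was -0.31 ± 0.32 (adjusted p = 0.665, edgeR), with -0.66 in replicates 1 to 4 and 0.37 in replicates 5 to 7. miR-669b-3p ran from 3.36 to 165 CPM in DMSO and from 3.16 to 68.9 in 27HC, a log2 fold change, with its SE, of -0.87 ± 0.79 (adjusted p = 0.6, edgeR). In DMSO it was at 8.35 CPM or below in replicates 2 to 4 and at 64.1 or above in the other 4, so the spread within that group exceeded the difference between the groups.

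**Figure D4:**
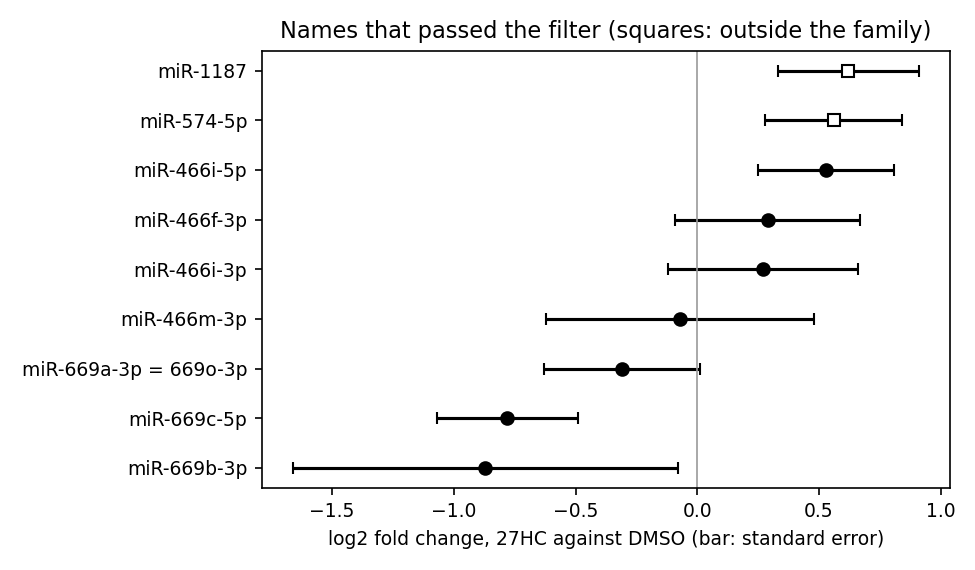
Log2 fold change of 27HC against DMSO (x axis) with its standard error (bars) for the family names that passed the filter and for miR-1187 and miR-574-5p, which lie outside the family (squares). Values run from -0.87 for miR-669b-3p to 0.62 for miR-1187, and none was called.

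Since the filter left out 67 names, the scarce names were also tested in 2 looser fits. With every name that had a count in at least 7 libraries, 698 names were tested and 25 were called (3.58%), 7 higher (1%) and 18 lower (2.58%), while 0 of 42 family names were called, with 4 at an unadjusted edgeR p under 0.05 (9.52%, against 11.5% of all). Their median log2 fold change was -0.30, against -0.113 over all 698, and 28 of 42 lay below 0 (66.7%, against 59.9%). Names with identical counts enter these figures more than once. All such names among the 42 lay below 0, so part of this lean repeats the same data. With no filter, 1695 names were tested, 27 were called (1.59%), 10 higher in 27HC (0.59%) and 17 lower (1%). One family name was among them, miR-467c-5p, and 7 of the 75 had an unadjusted p under 0.05 (9.33%, against 10.7% of all).

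Of the names with a count in every library, 4 had missed the first filter and were tested here, and they are given as chosen after their values were seen. miR-669c-3p, the other arm of the miR-669c-5p hairpin, had 52 counts in DMSO and 73 in 27HC, a log2 fold change of 0.74 opposite in sign to that of the 5p arm (edgeR adjusted p = 0.658). miR-669p-3p had 49 and 66 counts (0.72, edgeR adjusted p = 0.603), miR-669f-3p had 59 and 46 (0.01) and miR-466g had 45 and 35 (-0.09). None was called. The miR-669 names that passed the first filter, all below 0, thus do not stand for all miR-669 names. In this fit 4 of 14 lay above 0 and 10 below, with miR-669a-3p and miR-669o-3p counted as separate names.

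miR-467c-5p, from a hairpin of the array at chr2:10473931-10474027, had 5, 2, 9, 1, 4, 0 and 2 counts in DMSO replicates 1 to 7 and 0 in all 7 27HC libraries. Pooled over the group, by library totals without TMM factors, the 23 DMSO counts came to 9.69 CPM. This was 5.02-fold the 1.93 CPM that 3 counts over the whole 27HC group would give. The ratio leaves out the spread between libraries, so it is not a lower bound on the difference. miR-467c-5p fell in the fit with no filter (edgeR adjusted p = 0.024, lower in 27HC), and DMSO replicate 6, also at 0, shared the value of the 27HC libraries. The call ended without DMSO replicate 1 (adjusted p = 0.0848), DMSO replicate 3 (0.0751), DMSO replicate 5 (0.0626), 27HC replicate 1 (0.06), 27HC replicate 2 (0.0546) or 27HC replicate 4 (0.0583). It also ended with library totals in place of TMM (0.0642) and with limma-voom (0.0996), DESeq2 gave no adjusted p, and both filters left the name out. The call thus rested on a few counts per library and held in some of the fits.

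Other scarce names had values that were not called. miR-467e-5p had 24 counts in DMSO, at least 1 in each of the 7 libraries, and 2 in 27HC, both in replicate 4 (no filter, log2 fold change -2.70, SE 1.07, edgeR adjusted p = 0.28). The other 6 27HC libraries were at 0, for which the approximate limit of 3 counts is 7.39 to 25 CPM by library totals. They thus cannot be placed below the lowest DMSO library, at 2.78 CPM (TMM-scaled). miR-669m-3p had 12, 1, 0, 1, 5, 23 and 21 counts in DMSO replicates 1 to 7 and 2, 1, 0, 0, 3, 3 and 3 in the 27HC replicates (no filter, -1.97, SE 0.63, edgeR adjusted p = 0.0907). Its DMSO counts were high in replicates 1, 6 and 7, and every 27HC library lay within the DMSO range in CPM. It was called when the set of replicates was a model term (adjusted p = 0.0489), without DMSO replicate 3 (0.031), without DMSO replicate 4 (0.0459) and without 27HC replicate 7 (0.0485). The 12 counts of miR-297c-5p were all in DMSO (edgeR adjusted p = 0.251). Pooled, they were 2.62-fold the group floor of 3 counts, a ratio that also leaves out the spread between libraries. In all, 11 family names (14.7%) were at 0 in every 27HC library, 9 of them with at most 2 counts in total, and 3 (4%) were at 0 in every DMSO library. Over the whole table these shares were 17.5% and 8.44%. The 27HC group held 1552769 counts against 2373021 in DMSO, of which DMSO replicate 3 alone held 871189. The part of depth in these shares was not tested.

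At the higher end, miR-466o-3p had 4 counts in DMSO and 7 in 27HC (log2 fold change 1.43, edgeR adjusted p = 0.623), and miR-466f-5p had 5 and 8 (1.15, adjusted p = 0.643). Among the 3p arms of miR-467, miR-467a-3p had 15 and 21 counts (1.06, edgeR adjusted p = 0.579) and miR-467d-3p had 13 and 16 (0.89, adjusted p = 0.623). The CA-rich names encoded outside the array, miR-467g with 29 and 25 counts and miR-467f with 14 each, had log2 fold changes of 0.24 and 0.20. The 3 names miR-297a-3p, miR-297b-3p and miR-297c-3p shared 14 counts in DMSO and 5 in 27HC (-0.82, edgeR adjusted p = 0.73), and miR-297a-5p had 8 and 6 (-0.15, adjusted p = 0.961). None of these names was called.

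**Figure D5:**
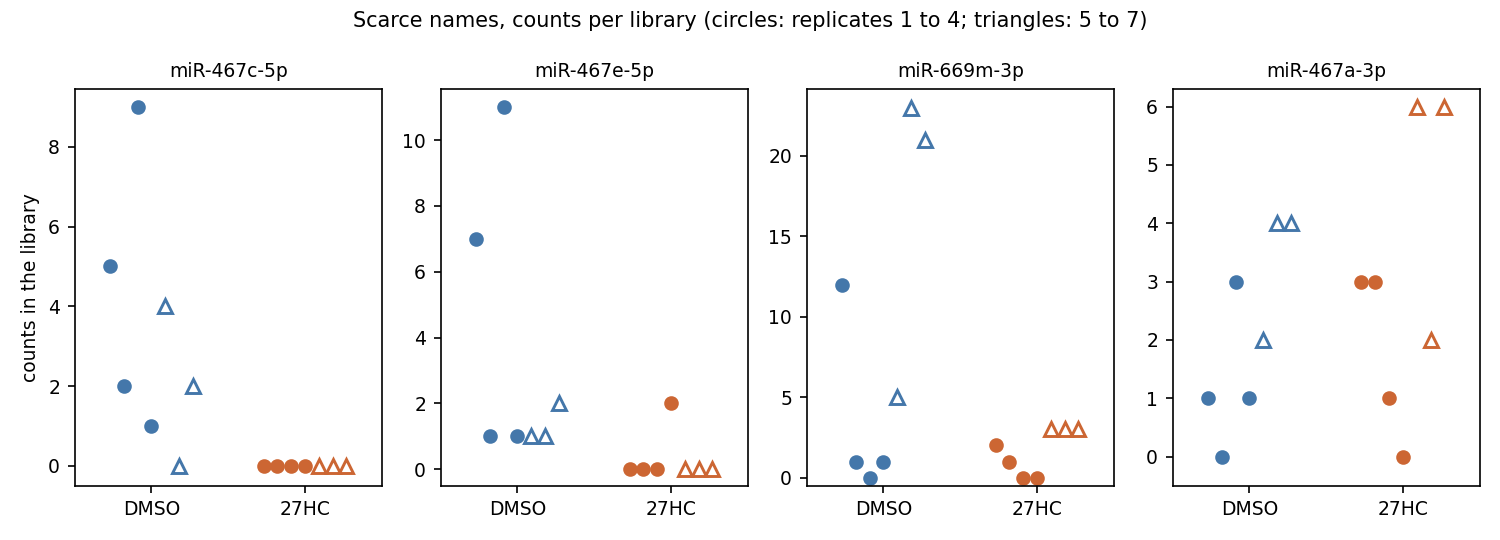
Counts per library (y axis) of 4 scarce names by treatment (x axis). Circles are replicates 1 to 4 and triangles replicates 5 to 7. miR-467c-5p is at 0 in all 7 27HC libraries and in DMSO replicate 6, miR-467e-5p has counts in 1 27HC library, miR-669m-3p reaches 23 counts in DMSO, and miR-467a-3p does not exceed 6 counts anywhere.

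Names outside the family that hold the run UGUGUGUG were set beside it, as miRNAs alike in sequence but picked by that run alone. There were 5, miR-574-5p, miR-1187, miR-3082-5p, miR-32-3p and miR-672-5p, and the 2 that passed the filter show the run, with seeds in capitals.
miR-574-5p: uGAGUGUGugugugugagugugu
miR-1187: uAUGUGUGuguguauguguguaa

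None of the 5 was called, in the filtered or the unfiltered fit. Their summed level was 196 to 412 CPM in DMSO (mean 308 ± 68) and 246 to 591 in 27HC (mean 433 ± 120), and 3 of 7 27HC libraries lay above the highest DMSO library. miR-1187 stood at 126 ± 47.4 CPM in DMSO and 193 ± 61.7 in 27HC, a log2 fold change, with its SE, of 0.62 ± 0.29 (adjusted p = 0.218, edgeR). miR-574-5p stood at 136 ± 51.5 and 201 ± 68.9 CPM, a log2 fold change, with its SE, of 0.56 ± 0.28 (adjusted p = 0.232, edgeR). For each of the pair, 3 of 7 27HC libraries lay above the highest DMSO library. They were replicates 1, 3 and 4 for miR-574-5p, as for miR-466i-5p, and replicates 1, 3 and 6 for miR-1187. No mature sequence was matched to miR-466i-5p, so whether it holds the run was not seen. miR-3082-5p had 69 and 59 counts (0.02, edgeR adjusted p = 0.986), and miR-32-3p and miR-672-5p had 6 and 5 counts in DMSO and none in 27HC.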

How the data were processed

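The authors deposited raw counts, a whole number for each mature miRNA in each library. RNA came from a miRNeasy Micro extraction and the library kit was QIAseq miRNA, per the labels' protocols. The submitters' processing notes name R 4.1.2, edgeR, limma and the build GRCm39 (mm39). The aligner, the rule for reads matching several miRNAs and the use of molecular identifiers are not given in the sources used here, so a count may be a read or a molecule. No row or column was left unmatched.

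Names were tested with edgeR 4.0.16 (R 4.3.3) by quasi-likelihood, with treatment as the only term, TMM scaling, filterByExpr defaults (minimum count 10, minimum total 15) and Benjamini-Hochberg adjustment over all names at 0.05. Fits without a filter, and with names counted in at least 7 libraries, covered scarce names. CPM used TMM library sizes, except for the limits of counts of 0 and the pooled group CPM set beside them, which used library totals. Rarefied numbers are hypergeometric expectations. The filtered edgeR fit was checked on simulated counts with a fixed dispersion and no difference between sets of replicates. The looser fits were not checked in this way. Within a group all 42 pairs of libraries differed by more than sampling noise (lowest chi-square per degree of freedom 5.57).

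Alternatives were other scalings, filters and tools (DESeq2 1.42.0, limma-voom 3.58.1), a replicate block, a term for replicates 1 to 4 against 5 to 7, each set alone, identical names kept once and each library left out. The 5p sum without miR-466i-5p, and repeats of the alternatives for the unfiltered family count and for the Sfmbt2-only, 3p and 5p sums, were added after seeing the data.

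The members and lists were chosen with earlier results of these data known. Named are the family names that passed the filter or were called, the 4 most abundant names of each number, the 2 highest and 2 lowest fold changes among names with a count in at least 7 libraries, and the 4 most abundant outside names with UGUGUGUG; miR-297c-5p, miR-672-5p, miR-669c-3p, miR-669p-3p, miR-669f-3p, miR-466g and names given only by sequence, hairpin position or shared counts were added after their values were seen.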

Additional observations from a re-analysis of the deposited data

Results flagged for a closer look

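In 82 groups of 7 libraries, 7 had a library far from the others by Dixon's gap over range, where chance gives about 1 in 20, or 4.1. The 7 include 3 miR-297 names that share the same counts, and several rest on few counts, so 7 cannot be set against 4.1. DMSO replicate 7 had 60 family names with at least 1 count, against 48 in the next library. In 27HC replicate 6 the shared value of miR-297a-3p, miR-297b-3p and miR-297c-3p was 23 CPM, against 8.2 in the next library, from 3 counts. In 27HC replicate 7, miR-297a-5p and miR-466o-3p were each at 24.6 CPM, against 8.02 in the next, also from 3 counts. miR-467e-5p was at 6.32 CPM in 27HC replicate 4, from 2 counts, and at 0 in the other 6 27HC libraries. Each rests on few counts or on a library's breadth, and the cause was not tested.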

How the results depend on the processing

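Over all names, 30 calls became 42 in replicates 1 to 4 alone, 12 in replicates 5 to 7 alone, 39 when the set of replicates was a model term and 21 to 34 without 1 library. The family's 0 calls in the filtered fit stayed 0 in every setting that keeps a filter, leaving out 1 library included, and became 1 (miR-467c-5p) with no filter. That 1 became 0 with library totals, with names counted in at least 7 libraries, with filterByExpr, with DESeq2, with limma-voom and in replicates 5 to 7 alone, 2 when the set of replicates was a model term (miR-669m-3p added), and 0 to 2 without 1 library. In replicates 1 to 4 alone the 1 call was miR-466i-5p in place of miR-467c-5p.

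Of 25 named miRNAs, 13 changed sign in at least 1 setting, none of them called. In replicates 5 to 7 alone, log2 fold changes were 0.37 for miR-669a-3p and for miR-669o-3p, -0.22 for miR-466f-3p, 0.17 for miR-297a-5p and -0.38 for miR-3082-5p. In replicates 1 to 4 alone they were -0.22 for miR-467g and -0.25 for miR-467d-3p. With limma-voom they were 0.11 for miR-669b-3p, 0.65 for miR-466m-3p, 0.05 for miR-297a-3p, miR-297b-3p and miR-297c-3p, 0.22 for miR-297a-5p and -0.05 for miR-467g. With the set as a term miR-466m-3p was at 0.21. miR-3082-5p was at -0.08 with library totals and at -0.01 with names counted in at least 7 libraries. Without 1 library the ranges were -0.29 to 0.29 for miR-466m-3p, -1.11 to 0.24 for miR-297a-5p, -0.45 to 0.73 for miR-467g, -0.30 to 0.56 for miR-467f and -0.18 to 0.25 for miR-3082-5p. The cause was not tested. The summed family difference ran from -0.02 to 0.30 on the log2 scale and the rarefied number of names from -7 to -2.85 without 1 library.

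Replicate numbers are shared between the groups, but no label says that they pair libraries. Same-numbered libraries correlated at 0.07 to 0.6 in their deviations, and 6 of 14 correlated best with their own number. With a replicate block 37 names were called, 0 of the family in the filtered fit and 1 in the unfiltered one, miR-466m-3p was at 0.23 and miR-467f at -0.04. Depth limits single names: 59 of the 75 never exceeded 10 counts in a library.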
